A study of Mus musculus with 15 samples.

Results

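Schwann and glial cell genes were followed in adrenal glands of mice at the end of dexamethasone treatment and during recovery from it. The set holds 7 genes, Sox10, Mbp, S100b, Cdh19, Erbb3, Fabp7 and Ngfr, of 21439 genes tested. Its members were taken by gene symbol from the platform annotation. Each of the 7 had 1 probe set with a single symbol, so that no member rests on a choice between probe sets. All animals were wild type C57BL/6J males with a labelled age of 6 weeks. The control group (4 arrays) was taken before any treatment, the withdrawal group (3 arrays) after 14 days of dexamethasone, a synthetic glucocorticoid, and the day 3 and day 7 groups (4 arrays each) after the same treatment and 3 or 7 days without it. Each array is titled a biological replicate, and the labels do not say whether it holds 1 animal or a pool. Control glands were taken before treatment, so treatment and elapsed time cannot be told apart in any comparison with control, and those of day 3 and day 7 hold recovery as well.

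Schwann cells accompany the nerve fibres that reach the adrenal through its capsule and end on the chromaffin cells of the medulla. The medulla also holds sustentacular cells, glia-like supporting cells that wrap chromaffin cells. In the embryo, Schwann cell precursors travelling along these nerves give rise to many of the chromaffin cells. Sox10 encodes the transcription factor that specifies and maintains this lineage. Erbb3 is the receptor through which neuregulin from axons keeps Schwann cells alive, acting with its partner Erbb2, and Ngfr is the low-affinity neurotrophin receptor p75. Cdh19 is a cadherin of Schwann cells and their precursors, Fabp7 a fatty acid binding protein of immature glia, S100b a calcium-binding protein of glia and also of fat cells, and Mbp a structural protein of myelin.

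None of the 7 genes passed the test in any of the 6 comparisons between groups (limma, Benjamini-Hochberg adjusted over all genes, threshold 0.05). The values below are log2 levels as deposited. Fabp7, S100b, Cdh19 and Mbp had their highest group means at withdrawal or day 3 and means close to control by day 7. Erbb3 had a higher mean than control in all 3 other groups. Sox10 and Ngfr were not measured clearly above the floor of the arrays, here the array medians, which ran from 1.55 to 1.64. Sox10 lay under its array's median in 15 of 15 arrays and Ngfr in 8 of 15. The label Schwann and glial therefore rests on the other 5 genes, since the defining factor Sox10 was at the floor in every group and Gfap, a glial filament gene, was there as well (group means of 1.28 at day 3 to 1.54 at day 7). The genes are named below as Schwann and glial cell genes by their list, not as a measure of cell number.

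Promoter windows were kept for 3 of the 7 members, Fabp7, S100b and Ngfr. The search left out the member windows of a chromosome, so this count does not say that the promoter table lacked the other members. The 250 bases before the start of Fabp7 and S100b are shown because both genes read above the floor and had means above control at withdrawal and day 3, whereas Ngfr was at the floor. They are from RefSeq on GRCm38.p6, Fabp7 from chr10:57784673-57784922 and S100b from chr10:76253586-76253835, both on the plus strand and 5′ to 3′. Capitals mark the letters TTCCCA, which are TGGGAA on the opposite strand, the core bound by the Notch pathway factor RBPJ.
Fabp7: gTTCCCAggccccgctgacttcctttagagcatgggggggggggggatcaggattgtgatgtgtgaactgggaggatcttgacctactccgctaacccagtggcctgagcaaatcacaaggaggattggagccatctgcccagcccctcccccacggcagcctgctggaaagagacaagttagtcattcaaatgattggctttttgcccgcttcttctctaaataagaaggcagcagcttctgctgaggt
S100b: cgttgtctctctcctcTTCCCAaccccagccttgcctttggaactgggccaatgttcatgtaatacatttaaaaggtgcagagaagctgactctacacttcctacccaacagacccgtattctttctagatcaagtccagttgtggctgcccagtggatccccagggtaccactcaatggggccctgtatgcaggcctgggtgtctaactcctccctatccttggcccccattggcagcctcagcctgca
The match lies 249 to 244 bases before the start in Fabp7 and 234 to 229 bases before it in S100b. These letters, read on both strands, occur in 21.6% of the 32851 promoter windows of this length, and overlap none of the other motifs searched. The SOX core was searched as ACAAAG and ACAATG, which either way occur in 25.2% of windows. The octamer ATGCAAAT occurs in 1.60%. Those letters, on either strand, are not in these windows of Fabp7, S100b or Ngfr.

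Fabp7 was the member with the largest difference from control at withdrawal. The control arrays (replicates 1 to 4) read 6.15, 4.61, 6.29 and 6.32, and the withdrawal arrays (1 to 3) read 7.17, 6.72 and 6.90. The day 3 arrays read 5.95, 6.84, 6.29 and 6.53, and the day 7 arrays 6.60, 6.25, 5.48 and 5.10. All 3 withdrawal arrays lay above all 4 controls and above all 4 day 7 arrays, while day 3 overlapped both neighbours. The group means were 6.93 ± 0.22 (SD, n = 3) at withdrawal, 6.40 ± 0.38 (n = 4) at day 3, 5.86 ± 0.69 at day 7 and 5.84 ± 0.82 in control. Withdrawal exceeded control by 1.09 ± 0.40 log2 (SE; 95% interval 0.23 to 1.94), which is 2.12-fold, but did not pass (limma, adjusted p = 0.167). Without control replicate 2 the difference was 0.68. That array also had the lowest mean of the 10 chromaffin cell markers, 8.13, where the other controls read 8.69, 8.77 and 8.42; the part of this in the Fabp7 result was not tested. Day 7 stood below withdrawal by -1.07 ± 0.40 (-1.93 to -0.22, adjusted p = 0.225). Day 7 and control were nearly level, with a difference of 0.01 and an interval of -0.78 to 0.81, wide enough to hold a change of either sign.

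Cdh19 was higher than control at withdrawal and at day 3 by similar amounts. In control it read 3.60, 2.97, 3.16 and 2.61, at withdrawal 3.81, 3.78 and 4.69, at day 3 3.55, 3.65, 4.70 and 4.15, and at day 7 3.44, 2.91, 3.43 and 3.56. The withdrawal arrays did not overlap control or day 7. At day 3, 3 of 4 arrays lay above the highest control. The differences from control were 1.01 ± 0.30 at withdrawal (0.37 to 1.64, 2.01-fold, adjusted p = 0.0742) and 0.92 ± 0.28 at day 3 (0.33 to 1.51, adjusted p = 0.232). Without withdrawal replicate 3 the first was 0.71. With genes below the median level left out, fewer genes were tested and the withdrawal difference passed, at an adjusted p of 0.0444. Day 7 lay below withdrawal by -0.76 ± 0.30 (adjusted p = 0.254), or -0.46 without withdrawal replicate 3, and above control by 0.25 (-0.34 to 0.84, adjusted p = 0.948).

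S100b had the same mean at withdrawal and at day 3. Controls read 4.78, 4.81, 4.43 and 4.23, withdrawal 5.45, 4.68 and 5.40, day 3 4.95, 5.09, 4.95 and 5.73, and day 7 4.56, 4.37, 4.77 and 4.35. All day 3 arrays were above all controls and above all day 7 arrays, whereas withdrawal replicate 2 lay inside the control range. Against control the difference was 0.61 ± 0.22 at withdrawal (0.14 to 1.08, adjusted p = 0.152) and 0.62 ± 0.20 at day 3 (0.18 to 1.05, adjusted p = 0.289). Day 7 differed from day 3 by -0.67 ± 0.20 (-1.10 to -0.23, adjusted p = 0.455), from withdrawal by -0.67 ± 0.22 (adjusted p = 0.161) and from control by -0.05 (adjusted p = 0.99). Since S100b is also a fat cell gene, the 7 measured adipocyte markers are given beside it. None passed at withdrawal or day 3 against control, and their median difference was -0.08 at withdrawal and -0.02 at day 3. Their mean level in the day 3 arrays was 4.76, 4.35, 5.91 and 4.93, highest in replicate 3, whereas S100b was highest in replicate 4. In the withdrawal arrays it was 5.04, 4.78 and 4.38, highest in replicate 1, as was S100b. The part of fat cells in the S100b values was not tested.

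Mbp came nearest to the threshold. Controls were tight at 2.08, 2.16, 2.11 and 2.03, and the withdrawal arrays read 2.68, 2.32 and 2.80, all above them. Day 3 read 2.08, 2.14, 2.15 and 2.64, and day 7 2.19, 2.23, 2.33 and 2.09. The withdrawal difference was 0.50 ± 0.14 (0.21 to 0.80, 1.42-fold, adjusted p = 0.0554). Without withdrawal replicate 2 it was 0.64 and passed, at an adjusted p of 0.0328. These levels, 2.03 to 2.80, lie close above the floor, where a difference on this scale can read smaller than it is. Day 3 stood below withdrawal by -0.35 ± 0.14 (adjusted p = 0.262) and day 7 by -0.39 ± 0.14 (adjusted p = 0.197). Mbp is also made by oligodendrocytes of the brain and spinal cord. The 6 oligodendrocyte markers, Mog, Mobp, Opalin, Olig1, Olig2 and Ermn, all had means below the floor in each of the 4 groups.

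Erbb3, the neuregulin receptor, had means above control in the other 3 groups. It read 2.32, 2.67, 2.86 and 2.65 in control, 3.51, 2.67 and 2.96 at withdrawal, 2.83, 2.96, 3.09 and 3.58 at day 3, and 3.07, 2.88, 3.60 and 2.56 at day 7. Every pair of groups overlapped. The differences from control were 0.42 ± 0.24 at withdrawal (-0.10 to 0.94, adjusted p = 0.416), 0.49 ± 0.23 at day 3 (0.01 to 0.97, adjusted p = 0.493) and 0.40 ± 0.23 at day 7 (-0.08 to 0.88, adjusted p = 0.873). The first was 0.19 without withdrawal replicate 1, and the third 0.21 without day 7 replicate 3. Its partner Erbb2 differed from control by 0.25 ± 0.21 at withdrawal (adjusted p = 0.614), 0.30 at day 3 and 0.35 at day 7. The ligand Nrg1 differed by 0.27 ± 0.15 at withdrawal (adjusted p = 0.412), 0.23 at day 3 and 0.07 at day 7. Neither of these passed in any comparison.

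Sox10 and Ngfr gave readings without a clear level. Sox10 means were 1.34 ± 0.14 (SD, n = 4) in control, 1.42 ± 0.11 (n = 3) at withdrawal, 1.31 ± 0.17 at day 3 and 1.30 ± 0.22 at day 7. Over its 6 comparisons the differences ran from -0.11 to 0.08. Ngfr ran from 1.18 to 1.61 in control, 1.25 to 1.97 at withdrawal, 1.39 to 2.15 at day 3 and 1.41 to 1.85 at day 7, with differences from control of 0.17, 0.28 and 0.21 (adjusted p = 0.734, 0.666 and 0.93). At these levels a lower amount of either gene could not be told from the floor. The sign of these small Sox10 differences turned with per-array median centring for withdrawal against control (-0.032) and for day 7 against day 3 (0.019), and with quantile normalization for day 3 against control (0.0014).

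**Figure D1:**
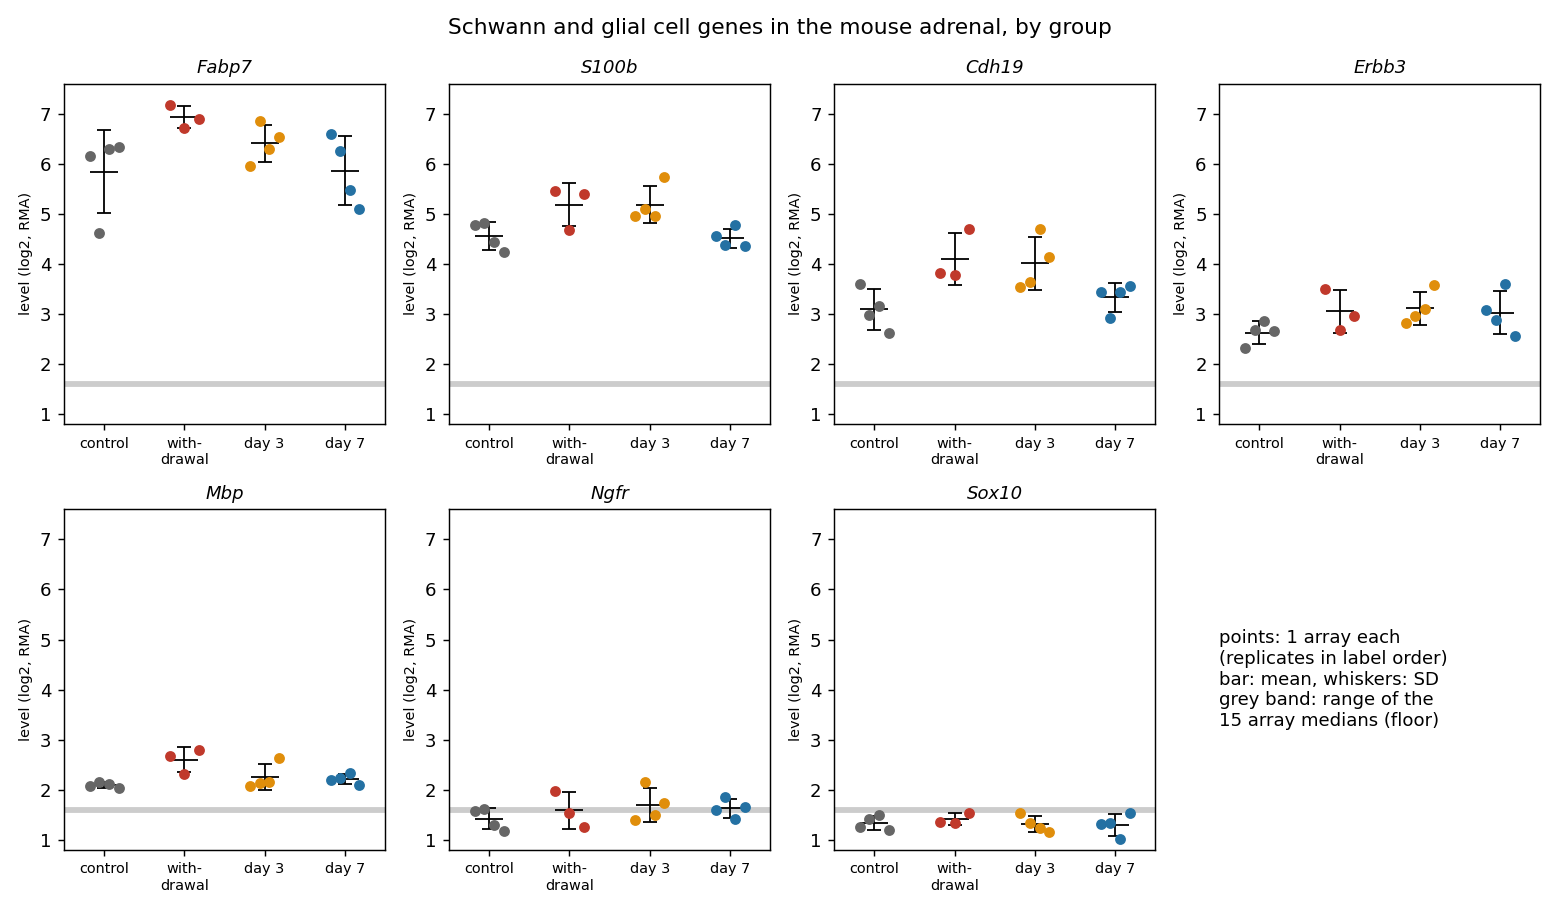
Log2 level (vertical axis) of the 7 Schwann and glial cell genes in control, withdrawal, day 3 and day 7 arrays (horizontal axis); each point is 1 array, the bar is the group mean, whiskers are the SD, and the grey band is the range of the array medians. Fabp7, Cdh19 and Mbp at withdrawal lie above all controls, and Sox10 stays under the band in all 15 arrays.

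At withdrawal against control, the arrays of 3 of the 7 members lay wholly above control, those of the other 4 overlapped it, and no member passed. At withdrawal 0 of 7 members passed in either direction, where 2.49% of all genes were higher and 1.81% lower. At an unadjusted p under 0.05, 4 of 7 were higher (Mbp, S100b, Cdh19 and Fabp7) and 0 lower, against 9.74% and 7.27% of all genes. The 3 of 7 without overlap were Mbp, Cdh19 and Fabp7, all higher, against 8.15% of all genes, and 0 were wholly below, against 6.94%. The median member differed by 0.50, where the median over all genes was -0.01. The members were chosen with earlier results of these data known, so these counts are a description of the list.

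In the comparisons that involve recovery no member passed either, and the median member lay closest to control at day 7. Day 3 against control had 0 members past the threshold (0.0886% of genes higher, 0.042% lower), 3 of 7 higher at an unadjusted p under 0.05 (S100b, Cdh19 and Erbb3, against 5.28% of genes), 0 lower (4.76%) and a median of 0.49. For S100b alone the groups did not overlap, against 2.75% of genes higher and 2.45% lower in that way. Day 3 against withdrawal had 0 past the threshold (1.37% higher, 0.886% lower), 1 lower and 0 higher at an unadjusted p under 0.05 (Mbp, against 7.39% and 6.46%), 0 without overlap (6.39% higher, 5.73% lower) and a median of -0.08, which was 0.07 without day 3 replicate 1. Day 7 against withdrawal had 0 past the threshold (0.98% higher, 0.905% lower), 4 lower and 0 higher at an unadjusted p under 0.05 (Mbp, S100b, Cdh19 and Fabp7, against 7.23% and 6.31%), 2 lower and 0 higher without overlap (Cdh19 and Fabp7, against 5.89% and 6.46%) and a median of -0.39. Comparisons with withdrawal share the 3 withdrawal arrays, and those with control the 4 controls, so these counts are not separate evidence. Day 7 against day 3 had 0 past the threshold, as had all genes (0% in each direction), 2 lower and 0 higher at an unadjusted p under 0.05 (S100b and Cdh19, against 3.41% and 3.67%), 1 lower and 0 higher without overlap (S100b, against 1.74% and 1.81%) and a median of -0.09. Day 7 against control had 0 past the threshold (0.014% higher, 0.00466% lower), 0 at an unadjusted p under 0.05 (3.23% and 2.71%), 0 without overlap (1.75% and 1.4%) and a median of 0.11.

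**Figure D2:**
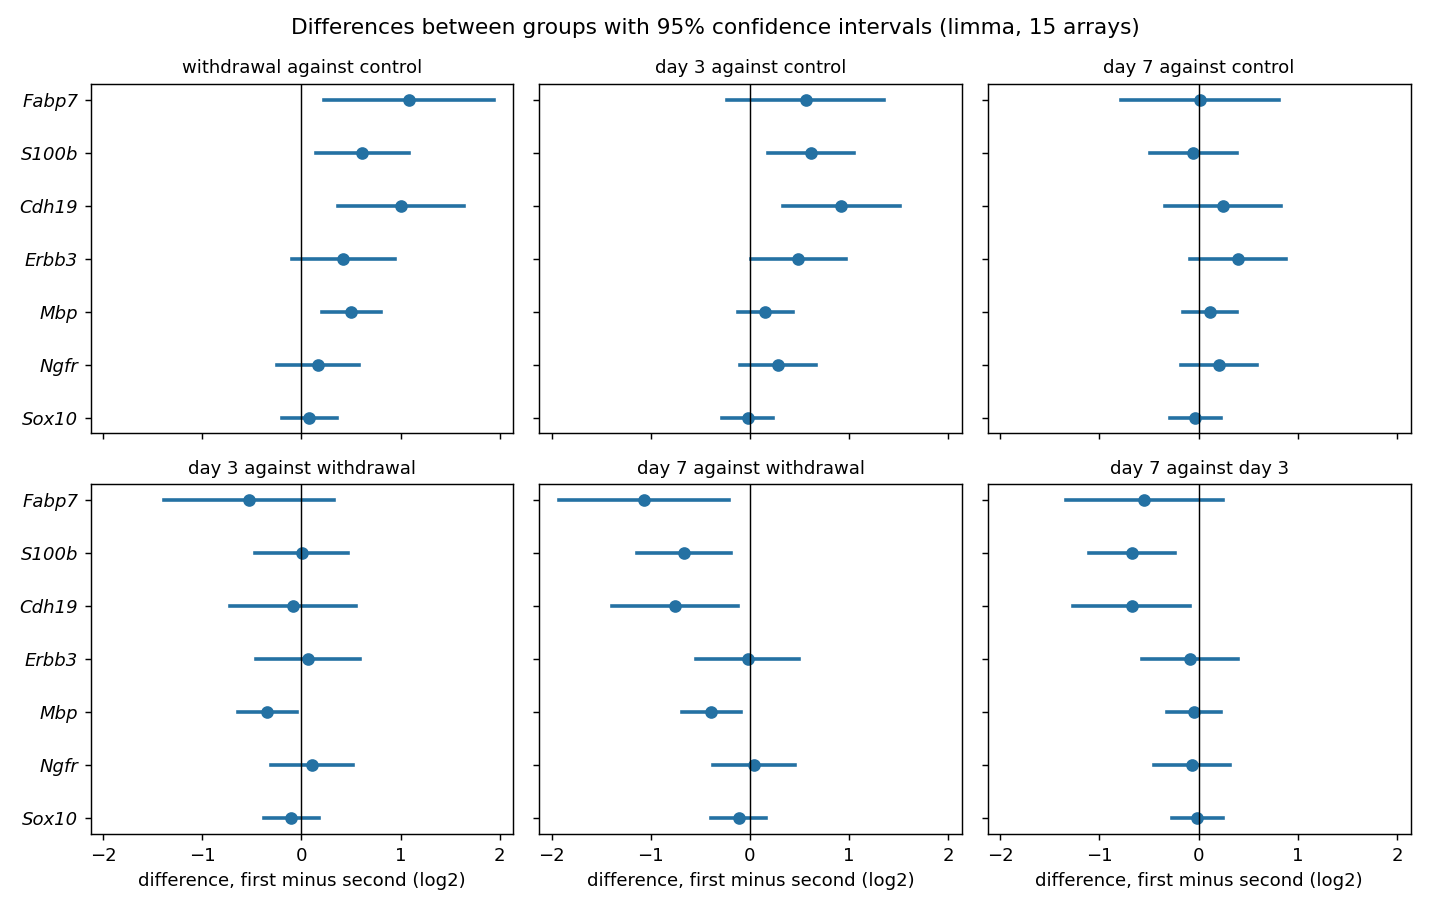
Difference between group means (horizontal axis, log2, first group minus second) with its 95% confidence interval for each of the 7 genes (vertical axis), 1 panel for each of the 6 comparisons. At withdrawal the intervals of Fabp7, S100b, Cdh19 and Mbp lie above 0 before adjustment for all genes, and no difference passed after it.

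The members varied only in part as 1 block between arrays of a group. After group means were taken away, Mbp and S100b went together most closely (Pearson r = 0.89 over 15 arrays, and 0.77 without that step), followed by Mbp and Erbb3 (0.70) and S100b and Erbb3 (0.62). Fabp7 had little in common with the others by the same measure, at 0.08 with Mbp, -0.06 with S100b and -0.07 with Cdh19. By ranks, with group means left in, Mbp and S100b were less close (Spearman rho = 0.50). S100b and Cdh19 (0.72) and Mbp and Erbb3 (0.71) then stood above them. These values describe arrays that share 1 normalization, and they carry no test. At withdrawal every member but Ngfr was lowest in replicate 2, though Cdh19 by little (3.78, against 3.81 in replicate 1) and Sox10 at the floor. The mean of the 7 members was 3.29 in that array, against 3.71 and 3.65 in replicates 1 and 3. At day 3 S100b, Mbp and Erbb3 were highest in replicate 4, and the other members in other arrays. The 8 fibroblast and capsule markers had mean levels of 6.95, 6.54 and 6.85 in withdrawal replicates 1 to 3, so that replicate 2 was lowest there too, while the macrophage mean was highest in it (7.00, against 6.90 and 6.63). Their part in the member values was not tested.

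By a rule that names the genes whose profile over the 15 arrays is most like that of Sox10, among 10397 genes above the median level, the 5 were Fyttd1 (Pearson r = 0.81), Trim34a (0.77), Fgfbp3 (0.73), Ftx (0.73) and Arf2 (0.73). With Sox10 at the floor in all arrays these likenesses are to readings without a clear level. For Fabp7, taken up after its values were seen because it had the largest withdrawal difference of the set, the nearest among 10396 genes were Ugp2 (0.89), the neuropeptide Y receptor gene Npy2r (0.89), Slco3a1 (0.89), Prkg2 (0.87) and Itgb8 (0.86). The points share the 4 groups and 1 normalization, and no p is given.

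Related genes were taken from 4 lists by role, 67 genes in all, of which 58 were measured and 51 were not among the 7 members. At withdrawal 5 of the 51 rose against control and 0 fell, against 2.49% and 1.81% of all genes, and their median difference was 0.13. At day 7, 2 of them fell against withdrawal and 0 rose, against 0.905% and 0.98% of all genes. None passed in the other 4 comparisons. At an unadjusted p under 0.05 the 51 had 14 higher and 0 lower at withdrawal against control (9.74% and 7.27% of all genes). Day 7 against withdrawal had 0 higher and 13 lower (6.31% and 7.23%). Day 3 against control had 8 higher and 2 lower (5.28% and 4.76%). Day 3 against withdrawal had 2 higher and 9 lower (6.46% and 7.39%). Day 7 against day 3 had 0 higher and 5 lower (3.67% and 3.41%). Day 7 against control had 1 higher and 0 lower (3.23% and 2.71%).

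The genes that rose at withdrawal came from the surface and receptor lists, and several of them have roles outside glia. Scn7a encodes a sodium channel found in non-myelinating Schwann cells and astrocytes. It read 5.37, 5.76, 5.91 and 5.39 in control, 6.46, 6.28 and 6.51 at withdrawal, 6.27, 6.03, 5.90 and 5.97 at day 3 and 5.51, 5.66, 5.87 and 5.18 at day 7. The withdrawal arrays lay above all others. Scn7a rose by 0.81 ± 0.17 at withdrawal (1.76-fold, limma, adjusted p = 0.0117) and fell by 0.86 ± 0.17 from withdrawal to day 7 (adjusted p = 0.0143). The rise passed without any single array of either group. The fall had an adjusted p of 0.0618 when only the arrays of its 2 groups were fitted, 0.0544 without withdrawal replicate 1 and 0.0508 without withdrawal replicate 3.

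Apod, a lipocalin of endoneurial and other fibroblasts and of glia, rose at withdrawal and stayed above every control in all later arrays. It read 5.16, 4.82, 5.04 and 4.87 in control and 6.33, 6.33 and 5.63 at withdrawal. At day 3 it read 5.63, 6.16, 5.71 and 6.64, and at day 7 5.60, 5.51, 5.63 and 5.21. The rise at withdrawal was 1.13 ± 0.22 (2.18-fold, adjusted p = 0.0103), with an adjusted p of 0.051 without withdrawal replicate 1 and 0.0603 without withdrawal replicate 2. The differences of 1.06 ± 0.21 at day 3 (adjusted p = 0.0625) and 0.51 ± 0.21 at day 7 (adjusted p = 0.787) did not pass.

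Sostdc1, a secreted inhibitor of BMP and WNT signalling, rose by 0.76 ± 0.19 at withdrawal (adjusted p = 0.0361) and fell by 0.80 ± 0.19 by day 7 (adjusted p = 0.0463). The rise passed in 2 of the 7 fits without 1 array, those without control replicate 1 or withdrawal replicate 1, and the fall in 1 of 7, that without withdrawal replicate 1. Without withdrawal replicate 2 the adjusted p was 0.16 for the rise and 0.186 for the fall. Both calls were also lost with median centring (0.06 and 0.0574), quantile normalization (0.0663 and 0.0589), only the 2 groups compared (0.0947 and 0.07) and the replicate number as a block (0.0672 and 0.0863). Ncam1, an adhesion molecule of Schwann cells, neurons and chromaffin cells, rose by 0.71 ± 0.18 (adjusted p = 0.038), from 6.30 in control to 7.01. It passed in 1 of the 7 fits without 1 array, that without control replicate 3. The Ncam1 call was also lost with median centring (adjusted p = 0.0608), only the 2 groups compared (0.063) and the replicate number as a block (0.102). Ntrk3, the receptor of the neurotrophin NT-3, rose by 0.89 ± 0.20 (adjusted p = 0.021), from 2.18 to 3.08. It passed in 2 of the 7 fits without 1 array, those without control replicate 4 or withdrawal replicate 1. The Ntrk3 call was also lost with only the 2 groups compared (adjusted p = 0.0638). The highest adjusted p was 0.117 for Ntrk3 and 0.142 for Ncam1, both without withdrawal replicate 2.

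**Figure D3:**
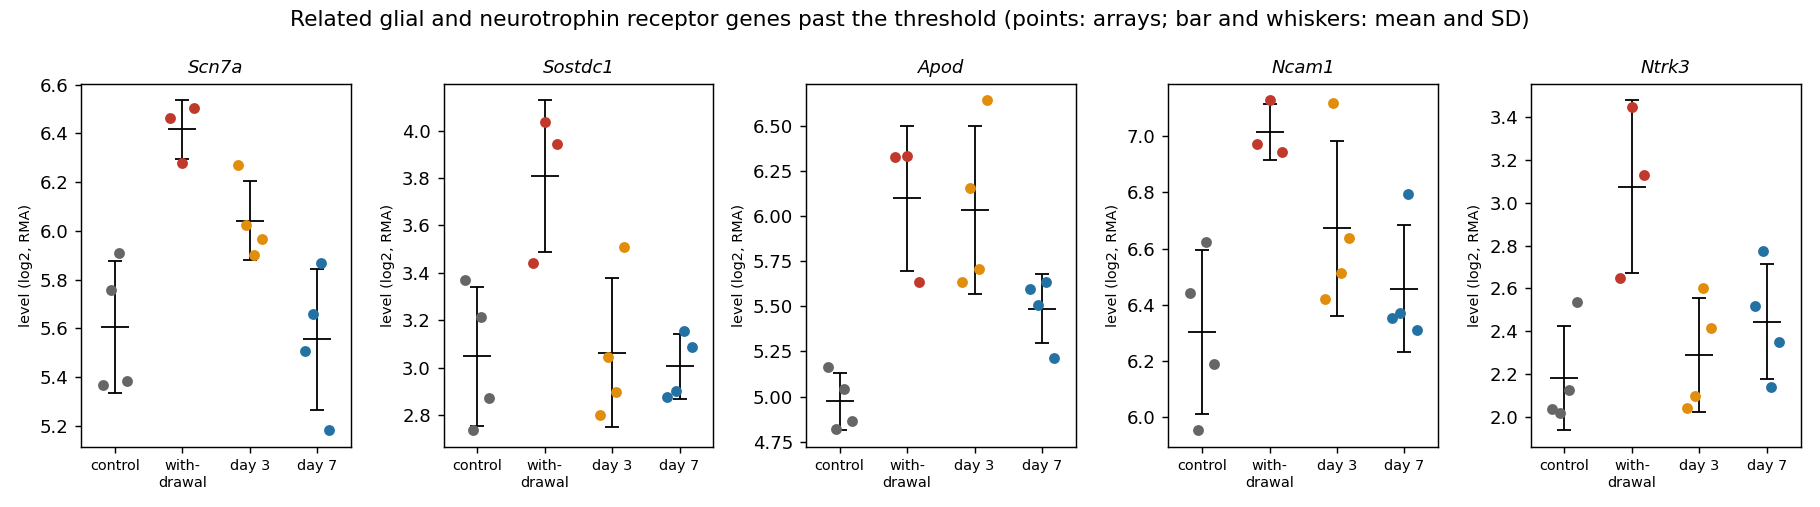
Log2 level (vertical axes, each on its own scale) of the 5 related genes that passed at withdrawal, in the 4 groups (horizontal axis); each point is 1 array, the bar is the mean and whiskers are the SD. Scn7a at withdrawal lies above every other array, and Apod stays above all controls at day 3 and day 7.

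By role, the lists were read at withdrawal against control with the members left in. Sox10 is among the transcription factors, Mbp among the myelin genes, and Erbb3 and Ngfr among the neuregulin list. Cdh19, Fabp7 and S100b are among the 19 glial surface, filament and other genes. The medians thus hold the members' own values, where the 51 other genes had a median of 0.13. Of all genes, 2.49% were higher and 1.81% lower. Of 9 lineage transcription factors, 0 passed, with a median of 0.13, and 6 of the 9, Sox10, Sox2, Pou3f1, Pou3f2, Tfap2a and Pax3, had withdrawal means below the floor. Of 13 myelin genes 0 passed, with a median of 0.08, and 8 were at the floor. Of 17 neuregulin, neurotrophin and GDNF family genes 1 rose, Ntrk3, with a median of 0.25. Of 19 glial surface, filament and other genes 4 rose, Scn7a, Apod, Ncam1 and Sostdc1, with a median of 0.39. The same 19 had a median of -0.43 at day 7 against withdrawal, with 2 that fell, against 0.905% of all genes. The 51 genes of all lists that are not members had a median of -0.115 there.

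Markers of other cell types moved over the same comparisons. Beside their counts stand the shares of all genes past the threshold, 2.49% higher and 1.81% lower at withdrawal against control. At day 7 against withdrawal these shares were 0.98% higher and 0.905% lower. In bulk RNA from the gland, more cells of a type and more RNA per cell cannot be told apart, and the values are relative to all RNA of the gland. Of 8 cortex markers 5 fell at withdrawal, Cyp21a1 (-1.26) and Scarb1 (-1.74) among them, with a median of -0.41, and their summed linear level went from 7846 to 8147 in control to 5033 to 5595 at withdrawal. Of 10 chromaffin markers 1 rose, Ddc, by 0.64 ± 0.13 (adjusted p = 0.00932), and it fell again by day 7 by 0.67 (adjusted p = 0.0122). The chromaffin median was 0.37 at withdrawal, below the 0.50 of the 7 Schwann and glial cell genes. It was above the 0.13 of the 51 related genes that are not members. The summed chromaffin level of 6414 to 8894 in control overlapped that of 8654 to 9421 at withdrawal. Of 9 neuronal markers 1 rose, Uchl1, by 0.51 (adjusted p = 0.0459), with a median of 0.20 and summed levels of 727 to 1171 in control and 1056 to 1375 at withdrawal. It passed in 0 of the 7 fits without 1 array.

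Macrophage markers had the largest median difference of the marker lists, with 8 of 10 rising at withdrawal, Trem2 (2.96) and Gpnmb among them, a median of 0.86 and summed levels of 477 to 575 in control and 1487 to 2379 at withdrawal. Gpnmb was at the floor in control, so no size is given for it. Of 8 endothelial markers 1 fell, Kdr (-0.77, adjusted p = 0.016), and 7 were lower at an unadjusted p under 0.05, against 7.27% of all genes. Their median was -0.35, and summed levels were 1285 to 1391 in control and 1004 to 1073 at withdrawal. At day 3 against withdrawal 2 of the 8 rose, Pecam1 and Erg (1.37% of all genes), and at day 7 against withdrawal 1, Kdr (0.98%). Of 6 T cell markers 1 rose at withdrawal, Cd4 (0.72, adjusted p = 0.026), from a control mean at the floor. Fibroblast and capsule markers had 0 of 8 passing and a median of 0.35, with summed levels of 981 to 1129 in control and 1269 to 1491 at withdrawal. Melanocytes also arise from the neural crest: of their 6 markers 1 rose, Mitf, by 0.41 (adjusted p = 0.0475), and the other 5, Dct, Tyr, Tyrp1, Pmel and Mlana, were at the floor at withdrawal. The mean log2 level over the 7 members was 2.89 to 3.11 in control, 3.29 to 3.71 at withdrawal, 3.18 to 3.65 at day 3 and 2.98 to 3.25 at day 7. The withdrawal and day 3 ranges lay above control, and day 7 overlapped control. The part of the cortex, macrophage, endothelial, T cell and fibroblast shifts in the member values was not tested.

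**Figure D4:**
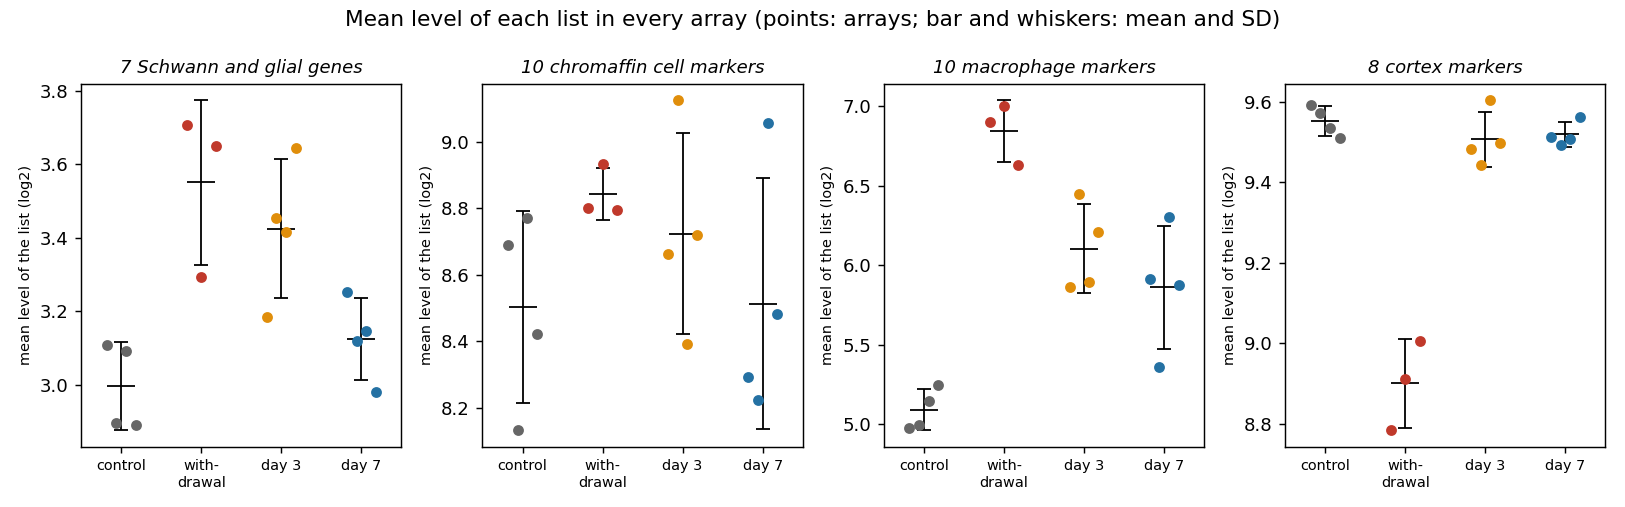
Mean log2 level (vertical axes, each on its own scale) of the 7 Schwann and glial cell genes, 10 chromaffin, 10 macrophage and 8 cortex markers in each array of the 4 groups (horizontal axis); points are arrays, bars are means and whiskers are the SD. At withdrawal and at day 3 the member mean lies above all controls. The macrophage mean is at its highest and the cortex mean at its lowest at withdrawal.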

How the data were processed

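The deposited values are log2 levels made by the authors with RMA (oligo is the other tool named), per the submitters' processing notes; RMA corrects background, quantile normalizes and summarizes probes. Versions, annotation and probe set filters are not stated. The table has 32736 probe sets on 15 arrays, whose number limits the precision. Probe sets with 1 symbol (22399) were kept, and for each gene that with the highest mean, which left 21439 genes. All 15 arrays entered 1 limma 3.58.1 model in R 4.3.3 with 4 groups (lmFit and eBayes), tested on simulated data. Each comparison had its own Benjamini-Hochberg adjustment over the 21439 genes. Differences are first group minus second ± the model's SE. The labels do not say that replicates were separate animals, so p-values measure the spread between these arrays. The members and lists were chosen with earlier results of these data known. Named genes are the 7 members, related genes past the threshold (up to 6 a list) with Nrg1 and Erbb2, up to 2 genes a marker list, and the 5 most like Sox10; genes at the floor, the further endothelial markers and the 5 most like Fabp7 were named outside this rule, after their values were seen. Alternatives were 2 normalizations, a filter on dim genes, 2 probe set choices, eBayes with trend and robust options, only the 2 groups compared, the replicate number as a block, and each array left out.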

Additional observations from a re-analysis of the deposited data

Results flagged for a closer look

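Of 21 groups of 4 member values, 2 held an array far from the others by Dixon's test at its 95% value, where chance gives about 1 in 20. Fabp7 in control replicate 2 was 4.61, with the nearest other control at 6.15; without this array the withdrawal difference of Fabp7 was 0.68 in place of 1.09 and the day 7 difference from control was -0.40 in place of 0.01. Mbp in day 3 replicate 4 was 2.64, with the nearest other day 3 array at 2.15; without it the day 3 difference of Mbp from control was 0.03 in place of 0.16. Neither gene was past the threshold in these comparisons with or without the array.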

How the results depend on the processing

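Member calls appeared under 2 alternatives. With genes below the median of gene means left out, 1 member passed at withdrawal (Cdh19, adjusted p = 0.0444), and without withdrawal replicate 2 also 1 (Mbp, 0.64, adjusted p = 0.0328), so that leaving out 1 array gave 0 to 1. That filter removed Sox10, Mbp and Ngfr, and the median over the other 4 members was 0.81 at withdrawal against control, -0.71 at day 7 against withdrawal and -0.61 at day 7 against day 3. Leaving out 1 array gave member medians of -0.28 to -0.066 for day 7 against day 3 and -0.24 to 0.070 for day 3 against withdrawal. Without 1 array, Cdh19 was -0.44 (day 3 replicate 3) and Fabp7 -0.30 (day 7 replicate 4) at day 7 against day 3, and Fabp7 was 0.15 (control replicate 2) at day 3 against control. The next counts are over all 58 measured genes of the 4 lists, members included. Those called at withdrawal numbered 3 with median centring, 8 with the filter, 2 with only the 2 groups compared, and 2 to 5 without 1 array. The member Cdh19 is among the 8 with the filter, and the member Mbp is counted in the fit without withdrawal replicate 2. At day 3 against control they numbered 1 with the filter and 1 with the trend and robust options. At day 3 against withdrawal they numbered 3 and 1 under the same settings, and 0 to 2 without 1 array. At day 7 against withdrawal they numbered 1 with median centring, 1 with quantile normalization, 0 with only the 2 groups and 1 in each fit without 1 array.

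With the replicate number as a block, related genes called were 3 at withdrawal and 1 at day 7 against withdrawal, no member passed, and S100b at day 3 against withdrawal was -0.0032. The deviations of same-numbered arrays correlated at -0.14 to 0.06 over 21 pairs, 0 of them over 0.1. Taken over all genes, these values cannot tell whether same-numbered arrays share a factor that affects some genes. The labels name no pairing.

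Small differences turned sign, none of them past the threshold. Centring gave Sox10 -0.032 at withdrawal against control and 0.019 at day 7 against day 3, Fabp7 -0.025 at day 7 against control and Erbb3 0.050 at day 7 against withdrawal. Quantile normalization gave Sox10 0.0014 at day 3 against control, Fabp7 -0.011 at day 7 against control and Erbb3 0.036 at day 7 against withdrawal. Ranges without 1 array that cross 0 follow. For withdrawal against control they were Ngfr -0.024 to 0.34. For day 3 against control they were Sox10 -0.096 to 0.033. For day 7 against control they were S100b -0.16 to 0.029, Fabp7 -0.40 to 0.26 and Sox10 -0.11 to 0.064. For day 3 against withdrawal they were S100b -0.24 to 0.14, Erbb3 -0.12 to 0.29, Cdh19 -0.31 to 0.21 and Ngfr -0.062 to 0.30. For day 7 against withdrawal they were Erbb3 -0.21 to 0.21, Ngfr -0.13 to 0.23 and Erbb2 -0.0053 to 0.17. For day 7 against day 3 they were Sox10 -0.090 to 0.086, Ngfr -0.17 to 0.082, Mbp -0.10 to 0.088 and Erbb3 -0.28 to 0.067. The cause of these shifts was not tested.

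Over all genes, 921 were called at withdrawal against control, 524 with only the 2 groups compared, 544 with the block and 459 without withdrawal replicate 2, and 1194 with median centring, 1208 with the filter and 1013 with the trend and robust options. Signal near the floor limits Sox10, Ngfr, Mbp and most transcription factor and myelin genes.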
